A study of Mus musculus with 4 samples.

Results

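The NF-κB subunit and inhibitor genes were examined in hair peg cells sorted from mouse embryonic back skin. The 10 members were taken by gene name from known genes of the family and its inhibitors, with earlier results of these data known. They were 5 subunit genes (Nfkb1, Nfkb2, Rel, Rela and Relb) and 5 inhibitor genes (Nfkbia, Nfkbib, Nfkbie, Nfkbiz and Tnfaip3). All 10 were found among the 23361 genes of the table, and all 10 passed the filter on low values. The study compared Nfatc1+ hair peg cells, which occupy the upper follicle where stem cells later reside, with Shh+ hair peg cells, and asked what distinguishes the stem cell niche at this stage. There were 2 RNA libraries of each population.

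Both groups came from mice that carried Rosa-stop-tdTomato, a red reporter, and K14-H2BGFP, a nuclear green reporter of keratinocytes. In the Nfatc1+ group the red reporter was switched on by a tamoxifen-inducible recombinase expressed from Nfatc1 (Nfatc1-CreER), and in the Shh+ group by one expressed from Shh (Shh-CreER). Tamoxifen was given to the pregnant mothers at E15.5, and double-positive cells were collected by sorting at E17.5. They were cells that expressed the driver after tamoxifen, and their progeny. Shh+ cells were released from dermis whose epidermis had been taken off after dispase (0.4 mg/ml, 1 h at 37°C), with 10 min in trypsin, whereas Nfatc1+ cells came from whole skin after 16 min in trypsin. This handling went with the population, so the effect of handling and that of cell identity cannot be told apart in any difference described here.

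NF-κB is a family of dimeric transcription factors built from the Rel proteins. In resting cells the dimers are held in the cytoplasm by inhibitor (IκB) proteins, until receptors of the TNF family or innate immune receptors activate the IKK kinases, which mark IκB for destruction. In a parallel, non-canonical branch the kinase encoded by Map3k14 causes the Nfkb2 precursor to be processed, and its product pairs with RelB. Several inhibitors are themselves NF-κB targets and close a negative feedback loop. In skin the pathway is best known downstream of the ectodysplasin receptor Edar, which the earliest hair follicles of the embryo need for their development.

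The labels were checked first against the driver genes: Nfatc1 was at 112 and 116 FPKM in the Nfatc1+ libraries and 25.3 and 20.1 FPKM in the Shh+ libraries, and Shh was at 10.5 and 11.7 against 144 and 145 FPKM. Keratinocyte genes were high in every library. FPKM is mapped fragments divided by transcript length and by library size. Krt5 was at 4323 and 4317 FPKM in Nfatc1+ cells and at 2443 and 2415 FPKM in Shh+ cells. Krt14 was at 1232 and 1204 against 1030 and 1086 FPKM. Of 9 tested epithelial genes, 6 were called toward Nfatc1+ cells and 1 toward Shh+ cells. For this and the lists below, the shares of all tested genes were 18.9% toward Nfatc1+ and 18.1% toward Shh+ cells. Of the immune cell genes, the pan-leukocyte gene Ptprc was at 0.0555 FPKM or less in every library, and Cd3e (T cells) and Cd207 (Langerhans cells) were listed at 0 in all 4. The 11 immune genes in the table summed to 7.15 and 10.4 FPKM in the Nfatc1+ libraries and to 7.15 and 12.7 FPKM in the Shh+ libraries. Of the 5 tested, only the macrophage gene Aif1 was called, at 2.73 and 4.19 FPKM in Shh+ cells against 0.963 and 0.648 FPKM in Nfatc1+ cells. The 7 endothelial genes summed to between 4.03 and 6.01 FPKM, with Pecam1 between 0.919 and 1.65 FPKM. The 7 fibroblast genes summed to 286 and 552 FPKM in the Nfatc1+ libraries and 548 and 607 FPKM in the Shh+ libraries, and did not move together. Dcn was called toward Shh+ cells, at 326 and 425 against 40.3 and 57.7 FPKM, and Col3a1 toward Nfatc1+ cells, at 76.6 and 162 against 59.8 and 53.6 FPKM. Col1a1 was at 77.9 and 165 against 71.6 and 52.7 FPKM and was not called, and all 7 were higher in Nfatc1+ replicate 2 than in replicate 1. The Merkel cell list had 6 of 7 genes called toward Nfatc1+ cells (sums of 57.1 and 64.9 against 23.4 and 28.4 FPKM). Of 6 tested genes of differentiated epidermis, 5 were higher in Shh+ cells. The other, Krtdap, was called toward Nfatc1+ cells, at 357 and 340 against 178 and 176 FPKM. That list summed to 868 and 916 FPKM in Nfatc1+ cells and 1226 and 1022 FPKM in Shh+ cells. Of 7 sebaceous gland genes, 4 were called toward Nfatc1+ cells (Pparg, Lpl, Scd1 and Plin2) and 1, Fabp5, toward Shh+ cells, with a median log2 difference of −1.15. The sums of that list, at 372 and 353 FPKM in Nfatc1+ cells and 654 and 649 FPKM in Shh+ cells, were made up mostly of Fabp5 (213 and 206 against 571 and 582 FPKM). The 10 melanocyte genes summed to 32.2 and 67.1 FPKM in the Nfatc1+ libraries and to 8.20 and 46.1 FPKM in the Shh+ libraries. Only Mitf was called, toward Nfatc1+ cells, at 9.74 and 12.3 against 0.860 and 1.29 FPKM. The part of these cells in the results on NF-κB genes was not tested. Relative depth, read from the steps between low values, was lowest in Shh+ replicate 2, at 0.575 of that of Nfatc1+ replicate 1.

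Several of these genes had κB motifs next to their start sites. A κB motif is the short, nearly palindromic DNA element that NF-κB dimers bind. RefSeq start regions (GRCm38.p6, 250 bases before to 50 bases after the start) were at hand for 7 of the 10 genes, and not for Nfkb1, Relb and Nfkbiz. Each was searched on both strands for the κB consensus and, separately, for the letters GGANNTTCC. The searches overlap: some stretches match both. Matches to the consensus were found in 5 of the 7 genes, namely Nfkb2, Rel, Nfkbia, Nfkbie and Tnfaip3, and matches to the letters in 4 of them, all but Rel. Nfkb2 had 3 start regions and Tnfaip3 had 2, and a gene counted if any of its regions matched. Counted in this way, 6.48% of the 9426 tested genes with a start region held the consensus. Of all 32851 start regions, taken singly, 4.51% held the consensus and 4.26% held the letters. Neither was found in the windows of Rela and Nfkbib, which says only that these letters are absent from 300 bases. Stretches of the 5 genes with a match are shown, called and not called alike. Capitals mark the matches, and each sequence runs in the direction of its gene. The stretch of Nfkb2 (chr19:46304695-46304724, + strand) lies 42 to 13 bases before the start and is cut short because a longer annotated transcript has an exon there. Those of Nfkbia (chr12:55492648-55492837, − strand), Tnfaip3 (chr10:19015411-19015540, − strand), Nfkbie (chr17:45555570-45555699, + strand) and Rel (chr11:23770970-23771099, − strand) end at the base before the start.
Nfkb2: cacGGGAATTCCCCccctcggggggccgaa
Nfkbia: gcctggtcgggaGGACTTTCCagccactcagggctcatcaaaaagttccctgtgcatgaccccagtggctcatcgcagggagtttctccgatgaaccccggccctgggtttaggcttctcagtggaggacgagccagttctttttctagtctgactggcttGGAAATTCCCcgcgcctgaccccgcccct
Tnfaip3: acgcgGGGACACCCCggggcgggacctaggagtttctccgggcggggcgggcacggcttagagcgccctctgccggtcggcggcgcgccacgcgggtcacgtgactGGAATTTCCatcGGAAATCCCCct
Nfkbie: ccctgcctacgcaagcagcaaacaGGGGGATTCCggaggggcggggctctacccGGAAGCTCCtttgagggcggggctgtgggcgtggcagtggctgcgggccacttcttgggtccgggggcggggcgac
Rel: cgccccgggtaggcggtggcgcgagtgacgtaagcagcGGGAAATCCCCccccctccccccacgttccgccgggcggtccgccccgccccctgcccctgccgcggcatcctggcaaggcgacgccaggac

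In Nfkbia the match nearest the start began 29 bases before it and another 178 bases before it. Tnfaip3 had matches beginning 125, 24 and 12 bases before its start, Nfkbie 106 and 76 bases before, Rel 92 bases before and the stretch of Nfkb2 39 bases before. Rel, which was not called between the populations, held the consensus, and Rela and Nfkbib, which were called, did not. Among tested genes with a start region, the consensus was present in 8.64% of the 1712 genes higher in Shh+ cells, 7.2% of the 1749 higher in Nfatc1+ cells and 5.65% of the 5965 not called. These are counts of letters, with no test, and say nothing of binding.

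Shh+ cells had more RNA of most members. A gene was called at a Benjamini-Hochberg adjusted p under 0.05 in limma on log2(FPKM + 0.5), and the 12750 genes that averaged 0.5 FPKM or more were tested. Of the 10 members, 6 were higher in Shh+ cells (Tnfaip3, Relb, Nfkbia, Nfkb2, Nfkbie and Rela), against a background of 18.1% among the tested genes. Only Nfkbib was called higher in Nfatc1+ cells, where the background was 18.9%, and Nfkb1, Rel and Nfkbiz were not called. The members were chosen with earlier results of these data known, so these counts are not independent evidence. Both Shh+ libraries lay above both Nfatc1+ libraries for 7 members, against 35.6% of all tested genes, and below them for 2 members, against 35.1%. The median log2 fold change of the members, Shh+ over Nfatc1+, was 0.60, and that of all tested genes was 0.00179. At an unadjusted p under 0.01 with more than 2-fold difference, 3 members were higher in Shh+ cells (Relb, Nfkbia and Tnfaip3), against 4.71% of tested genes, and Nfkbib was higher in Nfatc1+ cells, against 5.76%. In bulk RNA, a smaller number of expressing cells cannot be told apart from less RNA in each cell.

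**Figure D1:**
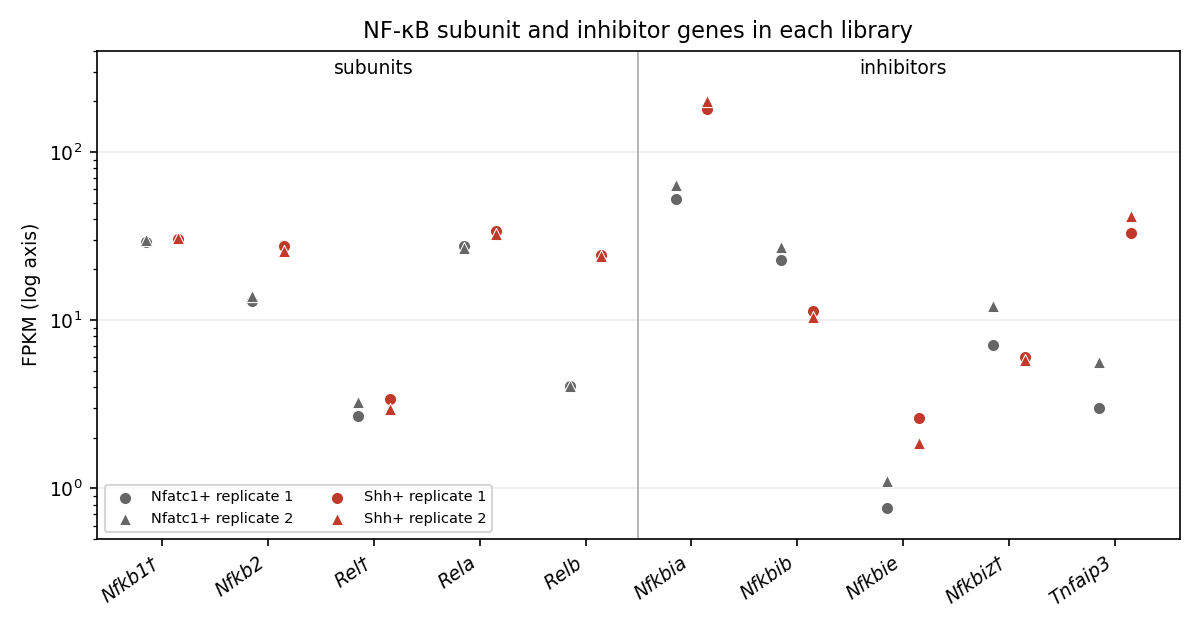
FPKM (log axis) of the 5 subunit genes (left) and the 5 inhibitor genes (right) for every library, with Nfatc1+ cells in grey and Shh+ cells in red. Circles are replicate 1 and triangles replicate 2, and names with a dagger are those not called. Relb and Tnfaip3 show the widest gaps, Nfkb1 and Rel lie level, and Nfkbib is the called gene that is lower in Shh+ cells.

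The subunits of the non-canonical branch carried the larger differences among the Rel genes. Relb, which encodes the partner of processed Nfkb2, lies on chromosome 7 of GRCm38 from 19606217 to 19629438 (GENCODE vM21). It was at 4.05 and 4.05 FPKM in the Nfatc1+ libraries and at 24.4 and 23.9 FPKM in the Shh+ libraries. The groups were far apart and the replicates nearly equal. The ratio of means was 5.97-fold, with a log2 difference of 2.44 (SE 0.088, adjusted p by limma = 5.5e-06), which placed Relb at rank 100 of 12750 tested genes toward Shh+ cells.

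Nfkb2, whose precursor both inhibits and, once cut, forms NF-κB, lies on chromosome 19 from 46304320 to 46312385. It was at 12.998 and 13.9 FPKM in Nfatc1+ cells and at 27.5 and 25.8 FPKM in Shh+ cells. Both Shh+ libraries lay above both Nfatc1+ libraries, at a ratio of 1.99-fold, with a log2 difference of 0.96 (SE 0.08, adjusted p by limma = 0.000153). Its annotated exons share 531 of 4584 bases with the gene AC114539.1 and 299 bases with Psd, both on the opposite strand, and no source used here says that the counting used strand. Psd was at 1.03 and 1.24 FPKM in Nfatc1+ cells and at 1.91 and 2.08 FPKM in Shh+ cells, so it moved with Nfkb2, at a lower level. AC114539.1 was not analysed here, and the part of either gene in the Nfkb2 value was not tested.

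The canonical subunits differed little or were not called. Rela, the main activating subunit (chromosome 19, 5637483 to 5648130), was at 27.8 and 27.0 FPKM in Nfatc1+ cells and at 34.1 and 32.6 FPKM in Shh+ cells. The groups did not overlap, and the difference was 1.22-fold, with a log2 difference of 0.28 (SE 0.067, adjusted p by limma = 0.0175). By limma this call ended without Nfatc1+ replicate 1 (adjusted p = 0.0576), Nfatc1+ replicate 2 (0.0939) or Shh+ replicate 1 (0.0668), and without the intensity trend in the variance (0.055).

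Nfkb1, the usual partner of Rela (chromosome 3, 135584655 to 135691547), was at 29.0 and 29.9 FPKM in Nfatc1+ cells and at 30.5 and 30.7 FPKM in Shh+ cells. Its Shh+ values lay just above the Nfatc1+ values, with a log2 difference of 0.051 (SE 0.065, adjusted p by limma = 0.574). Rel, the c-Rel gene best known from lymphocytes (chromosome 11, 23736847 to 23770970), was the lowest subunit in both populations, at 2.70 and 3.26 FPKM in Nfatc1+ cells and 3.41 and 2.96 FPKM in Shh+ cells. The groups overlapped, with a log2 difference of 0.086 (SE 0.15, adjusted p by limma = 0.698).

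The make-up of the subunit RNA pool differed between the populations. FPKM is scaled to transcript length, so levels of different genes can be added. The 5 subunits summed to 76.5 and 78.1 FPKM in the Nfatc1+ libraries and to 119.9 and 115.9 FPKM in the Shh+ libraries. Nfkb2 and Relb together made up 22.3% and 22.9% of that sum in Nfatc1+ cells and 43.3% and 42.9% in Shh+ cells. The share of Relb alone was 5.24% ± 0.074 in Nfatc1+ cells and 20.5% ± 0.175 in Shh+ cells (SD, n = 2). In Nfatc1+ cells Nfkb1 and Rela were the leading subunit genes, at 38.1% ± 0.28 and 35.4% ± 1.19 of the sum, and the order from the top was Nfkb1, Rela, Nfkb2, Relb and Rel. In Shh+ cells the leading 4 lay within a narrower range, from Rela at 33.3 ± 1.07 FPKM through Nfkb1 at 30.6 ± 0.146 and Nfkb2 at 26.7 ± 1.22 to Relb at 24.2 ± 0.372 FPKM (SD, n = 2). The ratio of Relb to Nfkb2 was 0.302 ± 0.0135 in Nfatc1+ cells and 0.907 ± 0.0273 in Shh+ cells.

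**Figure D2:**
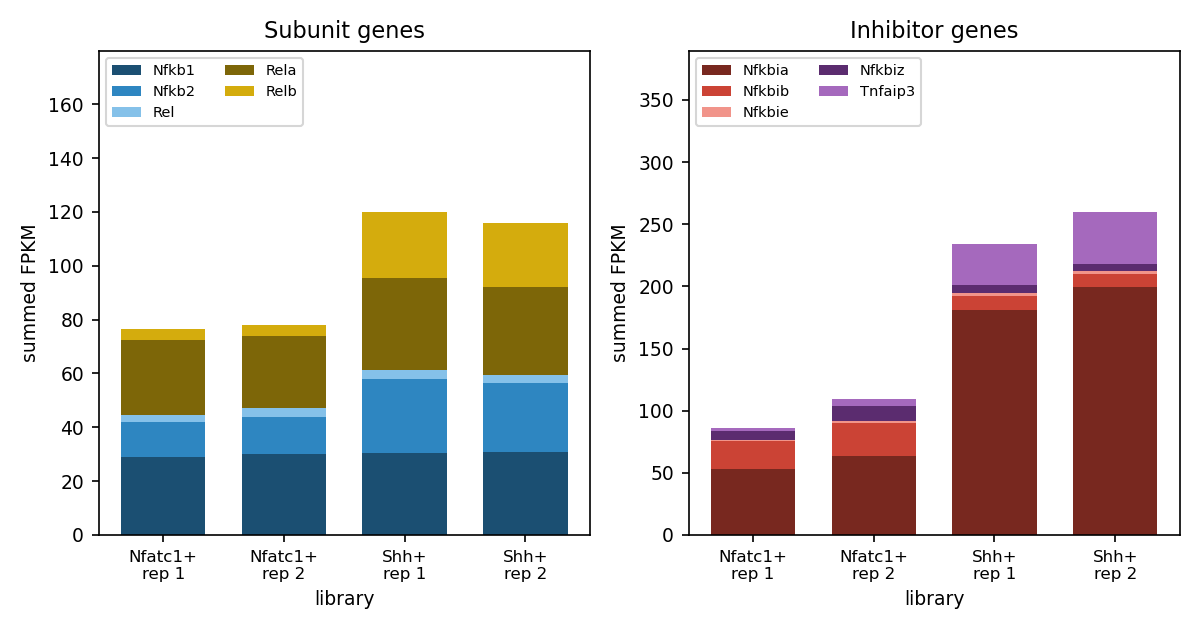
Summed FPKM of the subunit genes (left) and the inhibitor genes (right) in each library, stacked by gene on axes that start at 0. The added height of the Shh+ bars comes mainly from Relb and Nfkb2 among the subunits and from Nfkbia and Tnfaip3 among the inhibitors.

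The inhibitors differed in direction. Tnfaip3, a ubiquitin-editing enzyme that shuts off signals upstream of IKK (chromosome 10, 19000910 to 19015657), showed the largest difference among the members. It was at 3.02 and 5.67 FPKM in Nfatc1+ cells and at 33.0 and 41.8 FPKM in Shh+ cells. Both Shh+ values exceeded both Nfatc1+ values, although the Nfatc1+ replicates themselves differed. The ratio of means was 8.61-fold, with a log2 difference of 3.01 (SE 0.25, adjusted p by limma = 0.000159), rank 58 of 12750 toward Shh+ cells.

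Nfkbia, which encodes IκBα, the classical inhibitor of Rela dimers and an immediate NF-κB target (chromosome 12, 55489410 to 55492647), had the highest level of the 10 members in every library. It was at 52.9 and 63.3 FPKM in Nfatc1+ cells and at 181 and 199.9 FPKM in Shh+ cells. The groups were well separated, at a ratio of 3.28-fold, with a log2 difference of 1.71 (SE 0.096, adjusted p by limma = 2.91e-05).

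Nfkbib, which encodes IκBβ, a slower inhibitor of the same dimers, went the other way (chromosome 7, 28758251 to 28767512). It was at 22.6 and 27.1 FPKM in Nfatc1+ cells and at 11.3 and 10.4 FPKM in Shh+ cells. Both Nfatc1+ libraries lay above both Shh+ libraries, at a ratio of 2.29-fold, with a log2 difference of −1.16 (SE 0.11, adjusted p by limma = 0.000246). Its annotated exons share 314 of 2169 bases with Ccer2 and 42 bases with Sirt2, both on the opposite strand. Sirt2 was at 25.4 to 29.1 FPKM and overlapped between the populations, and no gene named Ccer2 was found among the deposited values. The part of either gene in the Nfkbib value was not tested. The ratio of Nfkbia to Nfkbib was 2.33 and 2.34 in the Nfatc1+ libraries and 16.0 and 19.2 in the Shh+ libraries.

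Nfkbie, which encodes IκBε (chromosome 17, 45555703 to 45563169), was the lowest member in every library, at 0.761 and 1.11 FPKM in Nfatc1+ cells and 2.63 and 1.85 FPKM in Shh+ cells. The groups did not overlap, but the Shh+ replicates lay apart, and the lower of them was the shallowest library. The ratio of means was 2.40-fold, with a log2 difference of 0.93 (SE 0.23, adjusted p by limma = 0.0177). Leaving out Nfatc1+ replicate 1 ended the call (limma adjusted p = 0.075), as did leaving out Shh+ replicate 1 (0.0929).

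Nfkbiz encodes IκBζ, an atypical nuclear member that works as a cofactor of NF-κB target genes rather than as a cytoplasmic anchor (chromosome 16, 55811375 to 55838899). It was at 7.10 and 12.1 FPKM in Nfatc1+ cells and at 6.07 and 5.83 FPKM in Shh+ cells. Both Nfatc1+ values were the higher ones, but they differed from each other by more than the lower of them differed from Shh+ cells, with a log2 difference of −0.60 (SE 0.22, adjusted p by limma = 0.0728). Without Nfatc1+ replicate 1 it was −0.96 and called (limma adjusted p = 0.00203), and without Nfatc1+ replicate 2 it was −0.24 (0.313). In Nfatc1+ replicate 2 all 5 inhibitors and 4 of 5 subunits were higher than in replicate 1. So were 20 of 27 immediate early and stress genes, among them Nr4a1 (293 against 163 FPKM). The other 7 were lower, among them Fos (736 against 817 FPKM) and Fosb (82.4 against 127 FPKM). Also higher in replicate 2 were 22 of 30 target genes, 10 of 10 melanocyte genes, 7 of 7 endothelial genes and 7 of 7 fibroblast genes. By contrast, 6 of 9 epithelial genes and 6 of 7 sebaceous gland genes were lower. The share of all genes that were higher in replicate 2 was not counted. Of 26 tested immediate early and stress genes, 19 were higher in Nfatc1+ and 3 in Shh+ cells. Of all tested genes 18.9% and 18.1% were called in these directions. The immediate early and stress genes summed to 4499 and 4876 FPKM in the Nfatc1+ libraries and 3342 and 3028 FPKM in the Shh+ libraries. Their part in the level of Nfkbiz was not tested.

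**Figure D3:**
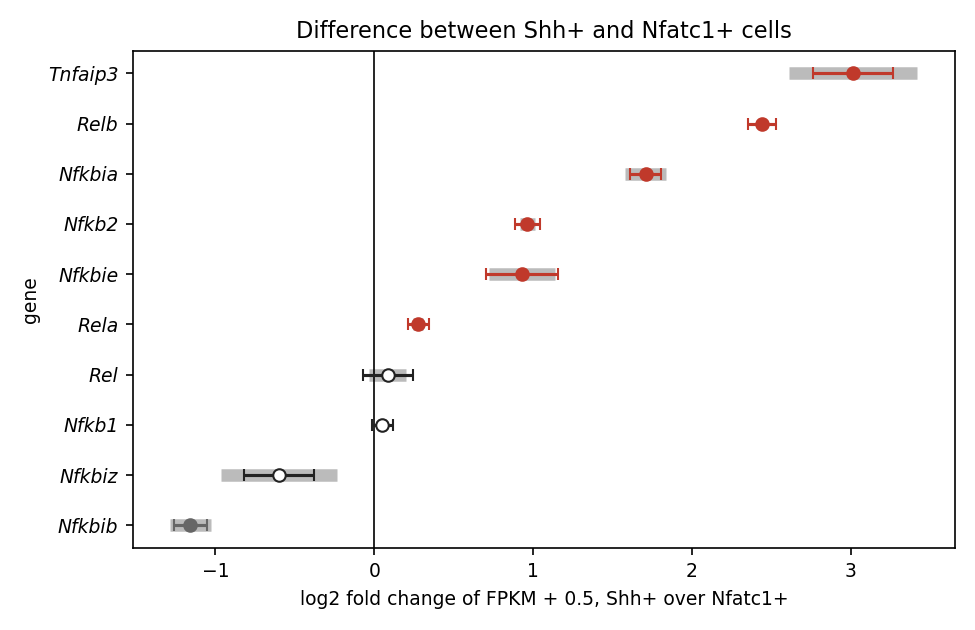
Difference in log2(FPKM + 0.5), Shh+ minus Nfatc1+, for the 10 members in order of size; points are the fitted values with bars of 1 standard error, red is higher in Shh+ cells, filled grey is higher in Nfatc1+ cells, open circles were not called, and pale bands span the 4 fits that each left out 1 library. Values run from −1.16 for Nfkbib to 3.01 for Tnfaip3, and Tnfaip3 and Nfkbiz have the widest bands.

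Added together, inhibitor RNA was higher relative to subunit RNA in Shh+ cells, and this difference rested on Nfkbia. The 5 inhibitors summed to 86.4 and 109.2 FPKM in the Nfatc1+ libraries and to 234 and 259.8 FPKM in the Shh+ libraries. The ratio of the inhibitor sum to the subunit sum was 1.13 and 1.40 in Nfatc1+ cells and 1.95 and 2.24 in Shh+ cells. Nfkbia made up 59.6% ± 2.3 of the inhibitor sum in Nfatc1+ cells and 77.2% ± 0.272 in Shh+ cells, whereas Nfkbib made up 25.5% ± 1.0 and 4.41% ± 0.58 (SD, n = 2). Without Nfkbia the ratio was 0.438 and 0.588 in the Nfatc1+ libraries and 0.442 and 0.516 in the Shh+ libraries, and the groups overlapped. Without Tnfaip3 it was 1.09 and 1.33 against 1.68 and 1.88, and both Shh+ libraries lay above both Nfatc1+ libraries, as they did without Nfkbib, Nfkbie or Nfkbiz. These shares and ratios are descriptions: an exact permutation test of 2 libraries against 2 cannot give a p below 0.333.

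The remaining genes of the pathway were counted from 6 lists written with earlier results of these data known. Of 3 other IκB family genes, Bcl3, a nuclear coactivator of the family and itself an NF-κB target, was higher in Shh+ cells. It was at 0.103 and 0.332 FPKM in Nfatc1+ cells and at 2.33 and 2.50 FPKM in Shh+ cells, with a log2 difference of 2.04 (SE 0.23, adjusted p by limma = 0.000699). Nfkbid and Nfkbil1 overlapped between the populations and were not called.

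In the list of IKK and upstream kinases, the share called toward Nfatc1+ cells was near that of all genes. This kinase list also holds adaptors such as Tab2 and the scaffold gene Ikbkg. Of its 13 tested genes, 3 were higher in Nfatc1+ cells and 0 in Shh+ cells by limma's adjusted p. At an unadjusted limma p under 0.05 the counts were 4 and 1. Of all tested genes 18.9% were called toward Nfatc1+ cells and 18.1% toward Shh+ cells. The 3 were 1 without Nfatc1+ replicate 1, Nfatc1+ replicate 2 or Shh+ replicate 1 and with no filter on low values, and the 0 was 1 without Shh+ replicate 1. Chuk (IKKα) was at 18.7 and 18.2 FPKM in Nfatc1+ cells and 15.47 and 20.4 FPKM in Shh+ cells, with a log2 difference of −0.051 (SE 0.13, adjusted p by limma = 0.783). Ikbkb (IKKβ) was at 20.2 and 19.3 against 21.8 and 22.7 FPKM, and Ikbkg (the scaffold NEMO) at 8.13 and 7.62 against 6.62 and 6.92 FPKM, with limma adjusted p = 0.114 and 0.164. None of these IKK subunit genes was called. Map3k14, the kinase of the non-canonical branch, was at 2.55 and 2.38 FPKM in Nfatc1+ cells and at 1.59 and 1.86 FPKM in Shh+ cells, with a log2 difference of −0.41 (SE 0.16, adjusted p by limma = 0.087). Tab2, an adaptor of the kinase TAK1, was higher in Nfatc1+ cells, at 67.8 and 68.4 against 46.2 and 47.6 FPKM, with a log2 difference of −0.53 (SE 0.058, adjusted p by limma = 0.000563). Ikbke and Ripk1 were called there too (−0.51 and −0.47), and both calls ended without Nfatc1+ replicate 1, Nfatc1+ replicate 2 or Shh+ replicate 1.

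Of 14 tested adaptor and ubiquitin ligase genes, each population had 3 that were higher, near the shares of all tested genes (18.1% toward Shh+ and 18.9% toward Nfatc1+ cells). Traf3, which holds the Map3k14 kinase at a low level, was at 13.6 and 14.0 FPKM in Nfatc1+ cells and at 33.7 and 32.8 FPKM in Shh+ cells, with a log2 difference of 1.24 (SE 0.071, adjusted p by limma = 3.06e-05). Birc3, its ubiquitin ligase partner, was also higher in Shh+ cells, at 10.2 and 13.1 against 4.51 and 4.90 FPKM, as was Traf6, the ligase used by Edar and by innate immune receptors, at 14.9 and 15.1 against 11.4 and 11.2 FPKM (limma adjusted p = 0.000692 and 0.0085). Edaradd, the adaptor that links Edar to the pathway, overlapped, at 7.70 and 7.98 FPKM in Nfatc1+ cells and 7.41 and 8.98 FPKM in Shh+ cells (adjusted p = 0.747). Traf5 (log2 difference −0.85), the innate adaptor Myd88 (−0.83) and the TNF receptor adaptor Tradd (−0.38) were higher in Nfatc1+ cells. The call of Tradd ended without Nfatc1+ replicate 1, Nfatc1+ replicate 2 or Shh+ replicate 1.

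Upstream, receptors and ligands were divided between the populations. Of 20 genes, 11 were tested, with 4 higher in Shh+ cells, 4 in Nfatc1+ cells and 3 not called, beside the same 18.1% and 18.9% of all tested genes. The 4 in Nfatc1+ cells were 2 without Nfatc1+ replicate 2 or Shh+ replicate 1. Edar, the ectodysplasin receptor, was at 23.9 and 26.3 FPKM in Nfatc1+ cells and at 158 and 173 FPKM in Shh+ cells, whereas the ligand gene Eda overlapped, at 2.91 and 2.06 against 2.15 and 2.22 FPKM (limma adjusted p = 0.606). The TNF family ligand genes Ltb (log2 difference 5.43) and Tnf (3.14) and the receptor gene Tnfrsf19 (2.31) were higher in Shh+ cells too. Tnf itself was at 1.65 and 4.52 FPKM in Nfatc1+ cells and 22.5 and 35.9 FPKM in Shh+ cells. Receptors for lymphotoxin and TNF were higher in Nfatc1+ cells. Ltbr, the lymphotoxin β receptor and a classical activator of the non-canonical branch, was at 17.4 and 16.7 FPKM in Nfatc1+ cells and at 3.31 and 4.10 FPKM in Shh+ cells, with a log2 difference of −2.06 (SE 0.12, adjusted p by limma = 3.38e-05). Tnfrsf1a, the main TNF receptor, was at 75.4 and 75.1 against 40.5 and 40.7 FPKM (limma adjusted p = 5.38e-05). Il1rap (−0.61) and Tlr3 (−0.66) were called in Nfatc1+ cells as well. The call of Il1rap ended without Nfatc1+ replicate 2 or Shh+ replicate 1, and that of Tlr3 with any single library left out.

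Of 9 tested negative regulators other than the members, 2 were higher in each population, near the 18.1% and 18.9% of all tested genes. Tnip1, a binding partner of the Tnfaip3 protein, was at 16.3 and 15.4 FPKM in Nfatc1+ cells and at 33.2 and 31.5 FPKM in Shh+ cells, with a log2 difference of 1.01 (SE 0.075, adjusted p by limma = 9.59e-05), and Traf4 was higher in Shh+ cells too (0.97). Zfp36, which destabilises cytokine mRNAs and is also one of the immediate early genes counted above, was higher in Nfatc1+ cells (−1.21), as was Tax1bp1 (−0.29), another partner of Tnfaip3.

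Of 23 tested NF-κB target genes, 12 were higher in Shh+ cells, 4 in Nfatc1+ cells and 7 were not called, beside 18.1% and 18.9% of all tested genes. The 4 in Nfatc1+ cells were 2 without Nfatc1+ replicate 2 or Shh+ replicate 1. The list includes genes already known to differ in these libraries, so its direction is not independent evidence. On the log2(FPKM + 0.5) scale, which understates changes of low genes, the largest differences were those of the Wnt inhibitor gene Dkk4 (log2 difference 6.11), Cd74, the invariant chain of antigen presentation (5.34), the adhesion ligand gene Madcam1 (4.81) and Fgf20 (4.14), all higher in Shh+ cells and all called by limma. By the ratio of means the order was another, with Madcam1 at 220.0-fold, Dkk4 at 118-fold, Mmp9 at 71.0-fold, Cd74 at 51.1-fold and Fgf20 at 35.5-fold. These ratios divide by low Nfatc1+ values, so their size and order are uncertain. In the Nfatc1+ libraries Madcam1 was at 0.0683 and 0.0736 FPKM and Mmp9 at 0.0289 and 0.0935 FPKM. Dkk4 was at 0.298 and 1.04, Fgf20 at 0.131 and 0.775, and Cd74 at 1.08 and 2.14 FPKM. Madcam1 and Fgf20 are known from embryonic skin as Edar-dependent genes. The targets higher in Nfatc1+ cells were Tap1 (−0.70), the protease gene Plau (−0.60), the mitochondrial superoxide dismutase gene Sod2 (−0.52) and the stress gene Ier3 (−0.50). The calls of Tap1 and Ier3 ended without Nfatc1+ replicate 2 or Shh+ replicate 1. Over the 6 lists other than the members, 22 of 73 tested genes were called toward Shh+ cells and 16 toward Nfatc1+ cells. Of the 22, 12 were in the target list. Among all tested genes 18.1% and 18.9% were called in these directions. The median log2 fold change over the 6 lists was −0.089. By list the median was −0.14 for the kinase list, 0.011 for the adaptors and ligases and −0.13 for receptors and ligands. It was −0.14 for the other negative regulators and 0.30 for the targets, beside 0.28 for the subunits and 0.93 for the inhibitors.

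**Figure D4:**
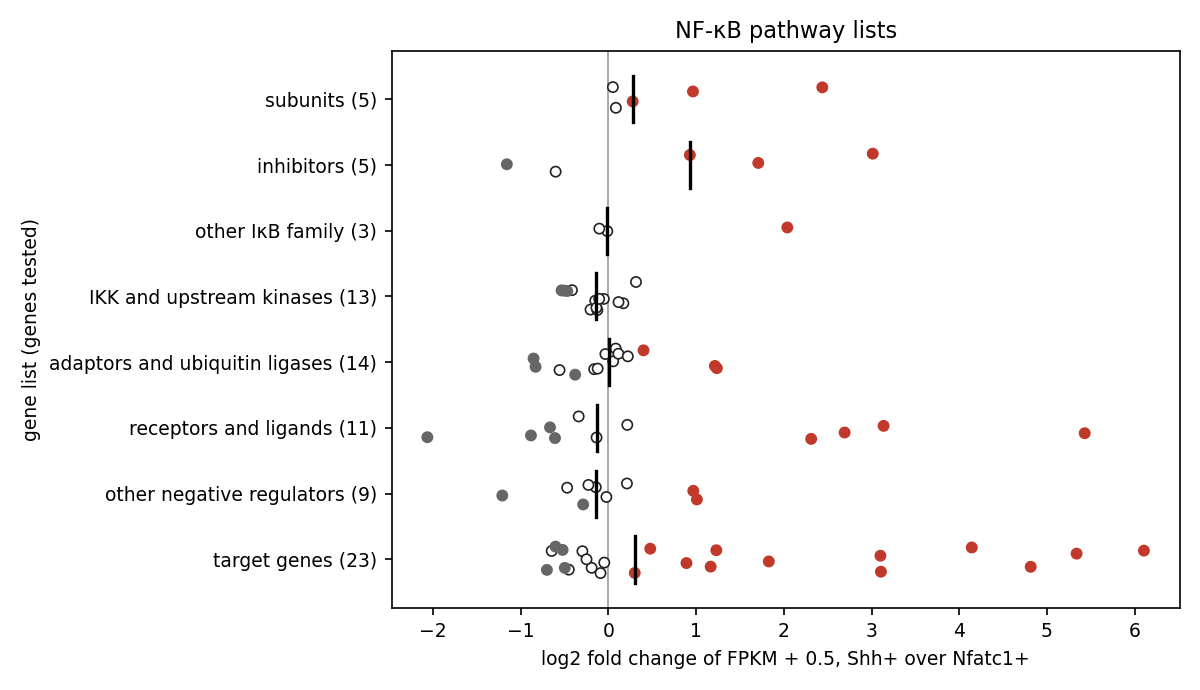
Difference in log2(FPKM + 0.5) between Shh+ and Nfatc1+ cells for the tested genes among the subunits, the inhibitors and the 6 other pathway lists, with the number tested in parentheses; red is higher in Shh+ cells, filled grey higher in Nfatc1+ cells, open circles were not called and black lines are medians. Genes of the kinase list lie close to 0, while receptors, ligands and targets reach from −2.06 for Ltbr to 6.11 for Dkk4.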

How the data were processed

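RNA from sorted Nfatc1+ and Shh+ cells (2 libraries each) had been sequenced as paired reads. Alignment by the authors used TopHat 2.0.13 and the GRCm38/mm10 build, Cufflinks 2.2.1 gave the expression values, and the deposited table holds FPKM of 23361 genes with 1 column per library. The gene annotation is not given in the sources used here. HTSeq is also named in the submitters' processing notes, with no role given. The table has no read counts, and the number of reads per library is unknown; relative depth is the commonest ratio between libraries of values below 0.3 FPKM. No source states that replicate libraries are separate animals, so the p-values reflect library-to-library spread, which may be technical.

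Genes averaging 0.5 FPKM or more were tested as log2(FPKM + 0.5) with limma 3.58.1 (R 4.3.3), with an intensity trend and Benjamini-Hochberg adjustment over 12750 genes. The pseudocount understates the change of low genes. The script was tested on simulated data. All 10 members are named. Of each other list, up to 4 called genes per direction are named by size, plus Edar, Edaradd, Eda, Traf6, Chuk, Ikbkb, Ikbkg, Map3k14 and Bcl3. Nfkbid and Nfkbil1, as uncalled remainder, and Mmp9 were chosen after their values were seen. So were the named sebaceous genes, Aif1, Cd3e, Cd207, Dcn, Col3a1, Krtdap, Mitf, Nr4a1, Fos, Fosb and the overlapping genes. The members and lists were chosen with earlier results of these data known. A planned look at protein sequences was not made, as no protein table was used here. Alternatives were other pseudocounts, filters, scalings, variance settings, a fold threshold, a replicate block and each library left out.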

Additional observations from a re-analysis of the deposited data

How the results depend on the processing

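Tnfaip3, Relb, Nfkbia and Nfkbib kept their calls and directions in the 14 alternatives run. Under the form of threshold used in the study (unadjusted p under 0.01 and more than 2-fold) the members higher in Shh+ cells were 3, all genes called were 600 in Shh+ and 734 in Nfatc1+ cells, the other pathway genes higher in Nfatc1+ cells were 2, and Nfkb2 (0.96), Rela (0.28) and Nfkbie (0.93) were not called. Without the intensity trend Rela (0.28) was not called. With a mean of at least 5 FPKM, Rel and Nfkbie were not tested, so those values could not be given. Both scalings, both other pseudocounts and robust variances left the calls of the members as they were. With the replicate block, which used the shared replicate numbers, the members higher in Nfatc1+ cells were 2, with Nfkbiz (−0.60, limma adjusted p = 0.0271) added. Genes of the kinase list higher in Shh+ cells were then 1. No source says that a number marks a shared litter or day, and the deviations of same-numbered libraries correlated at 0.114 over 12750 genes.

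Leaving out each library in turn left 1 library in a group. Some members then lost or gained a call, and fewer of all tested genes were called in each direction. Log2 differences then ran from −0.03 to 0.20 for Rel, from 0.25 to 0.31 for Rela, from 0.72 to 1.13 for Nfkbie, from −0.96 to −0.24 for Nfkbiz, from −0.075 to 0.19 for Edaradd, from −0.34 to 0.072 for Eda, from −0.25 to 0.14 for Chuk, and the other pathway genes higher in Nfatc1+ cells numbered 9 to 18. Without Tnfaip3, the inhibitor to subunit ratio was 1.78 in Shh+ cells. In alternatives chosen after seeing the data, it was 0.513 in Nfatc1+ and 0.479 in Shh+ cells without Nfkbia, and 0.942 in Nfatc1+ cells without Nfkbib. Among genes that were not called, the sign turned for Rel without Nfatc1+ replicate 1 (−0.030) or Shh+ replicate 1 (−0.0014), Edaradd without Shh+ replicate 2 (−0.075), Eda without Nfatc1+ replicate 1 (0.072) and Chuk without Shh+ replicate 1 (0.14). Apart from the smaller number of libraries, the cause was not tested. Nfkbie, Bcl3, Ltb, Madcam1, Mmp9, Dkk4, Fgf20 and Tlr3 were among the genes low in a population, and the part of depth in their values was not tested.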
